A study of Mus musculus with 6 samples.

Results

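The genes described here are 9 transcription factors that set macrophage identity or bear on macrophage self-renewal, namely Spi1, Cebpa, Cebpb, Maf, Klf2, Klf4, Klf6, Bhlhe40 and Zeb2. They were chosen by name, and each was measured as the brightest array feature that a platform annotation table paired with that symbol alone. Of the 9, 8 had such a feature among the 22180 genes measured. Zeb2 had none of its own and was not analysed here. Transcript levels came from 6 Affymetrix whole-transcript arrays of J774A.1 cells, a tumour-derived mouse macrophage line of Balb/c strain that divides in culture, so every value describes 1 immortal line and not tissue macrophages. All cells grew in RPMI-1640 with 10% FCS to 80% confluence. Over 18 h, 3 cultures received the neuropeptide NPFF at 1 nM in PBS and 3 control cultures received PBS alone, and 500 ng of RNA was used per sample. The sample titles call the controls untreated, while their treatment labels name the PBS vehicle. NPFF is an amidated peptide of the RF-amide family that acts on G-protein-coupled receptors. The titles give biological replicates 1 to 3 in each group but do not say whether cultures were grown on separate days, so p-values measure only the spread between these samples.

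PU.1, the product of Spi1, is an ETS-family factor that opens myeloid enhancers, and it works there together with the leucine zipper factors C/EBP alpha and C/EBP beta, encoded by Cebpa and Cebpb. MAF drives genes of the mature macrophage and holds back its division, and KLF4 and MYC take part in macrophage self-renewal. KLF2, KLF4 and KLF6 are zinc finger factors that bind GC-rich and CACCC sequences: KLF4 promotes monocyte differentiation, KLF2 restrains inflammatory activation and KLF6 favours it. BHLHE40 is a basic helix-loop-helix repressor that binds the E-box CACGTG and supports macrophage proliferation. ZEB2 is a zinc finger repressor that maintains the identity of tissue macrophages.

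The 300-base promoter windows of 4 of these genes are printed because Klf2 and Cebpb followed each other most closely over the arrays, with Klf4 and Klf6 the closest pair within the KLF genes. RefSeq windows on GRCm38.p6, running from 250 bases before to 50 after a gene's start, were matched by symbol for 6 of the 9 genes; Spi1, Maf and Bhlhe40 were not matched. Klf2 lies at chr8:72318812-72319111 on the + strand, Cebpb at chr2:167688665-167688964 on the + strand, Klf4 at chr4:55532426-55532725 on the - strand and Klf6 at chr13:5861239-5861538 on the + strand. Capitals mark the GC box GGGCGG and the box CACCC, both of KLF type, and the E-box CACGTG, each searched on both strands.
Klf2: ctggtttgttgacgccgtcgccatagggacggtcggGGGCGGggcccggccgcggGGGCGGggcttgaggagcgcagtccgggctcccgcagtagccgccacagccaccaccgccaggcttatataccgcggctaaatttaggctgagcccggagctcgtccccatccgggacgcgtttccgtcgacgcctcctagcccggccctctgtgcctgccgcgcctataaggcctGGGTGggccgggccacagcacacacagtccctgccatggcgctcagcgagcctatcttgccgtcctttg
Cebpb: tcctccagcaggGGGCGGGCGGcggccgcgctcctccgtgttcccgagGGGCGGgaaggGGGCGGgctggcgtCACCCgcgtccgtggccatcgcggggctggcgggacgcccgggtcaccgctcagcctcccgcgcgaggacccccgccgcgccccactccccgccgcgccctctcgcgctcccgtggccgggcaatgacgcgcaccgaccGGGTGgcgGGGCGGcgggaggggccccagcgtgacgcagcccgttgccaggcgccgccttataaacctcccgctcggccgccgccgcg
Klf4: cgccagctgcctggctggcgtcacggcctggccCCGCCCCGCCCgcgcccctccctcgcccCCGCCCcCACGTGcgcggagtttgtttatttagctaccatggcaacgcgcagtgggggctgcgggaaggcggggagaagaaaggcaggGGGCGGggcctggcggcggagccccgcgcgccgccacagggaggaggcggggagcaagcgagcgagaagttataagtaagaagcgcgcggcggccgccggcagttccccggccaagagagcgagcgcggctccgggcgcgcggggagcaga
Klf6: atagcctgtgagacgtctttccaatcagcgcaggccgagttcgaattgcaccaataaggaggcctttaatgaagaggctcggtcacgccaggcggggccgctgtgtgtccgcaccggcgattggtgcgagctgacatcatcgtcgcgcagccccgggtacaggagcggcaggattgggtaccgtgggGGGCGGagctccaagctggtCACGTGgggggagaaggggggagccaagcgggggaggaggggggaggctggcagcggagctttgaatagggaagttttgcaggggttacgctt

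GGGCGG had 2 matches in Klf2, 5 in Cebpb, 4 in Klf4 and 1 in Klf6, some of them overlapping each other, and it occurred in 35.7% of all 32851 promoter windows. CACCC had 1 match in Klf2 and 2 in Cebpb and occurred in 57.5% of windows. The E-box CACGTG, which occurred in 7.15% of windows, was found once in Klf4, at base 69 of the window, and once in Klf6, at base 208. TGACG, the half-site of the cAMP response element, had 3 matches in Cebpb, 1 in Klf2 and 1 in Klf4, against 20.8% of windows with at least 1. The Klf2 window also held TAAATTTA, the core of a MEF2 site, which 0.545% of windows share. Sites of PU.1, C/EBP, MAF and ZEB type were searched too and had no match in the printed windows. They occurred in 28.3%, 10.8%, 19.5% and 20.2% of all windows. TATA and CCAAT boxes were also searched and are not described. All of these are matches of letters and not measured binding sites.

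No transcription factor of the 8 differed between NPFF and control cells beyond the spread of the arrays. The differences, given throughout as NPFF minus control in log2 units, lay between -0.20 for Bhlhe40 and 0.24 for Cebpb, and 4 were above and 4 below 0. By limma, fitted over all genes with Benjamini-Hochberg adjustment, 0 of the 8 had an adjusted p under 0.05, where the share over all genes was 0%, and 0 had an unadjusted p under 0.05, where it was 2.51%. In none of the 8 did all NPFF arrays lie on one side of all controls; over all genes the groups did not overlap in 8.58%, with NPFF higher in 3.67% and lower in 4.92%. With 8 genes, counts of 0 beside such shares say nothing particular about them.

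The control arrays were the more scattered group. The median SD of the 8 genes was 0.21 among controls and 0.096 among NPFF arrays, against 0.14 and 0.067 over all genes. Control 1 stood apart: it was the lowest of the 6 arrays in 5 of the 8 genes, Cebpa, Cebpb, Klf2, Klf6 and Bhlhe40, and in 48.9% of all genes. It was the highest in 0 of the 8 and in 5342 of all 22180 genes. Its median as deposited was the highest, 6.38 against 6.24 to 6.29 log2. As deposited it also had the narrowest interquartile range, 2.04 against 2.31 to 2.41 log2, and pairs of controls correlated across genes at r from 0.965 to 0.996, compared with 0.996 to 0.997 for NPFF pairs. Each difference of the 8 is given with and without control 1. Fits that down-weighted it, or left out controls 1 and 2 together, are among the alternatives at the close; what sets control 1 apart was not tested.

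**Figure D1:**
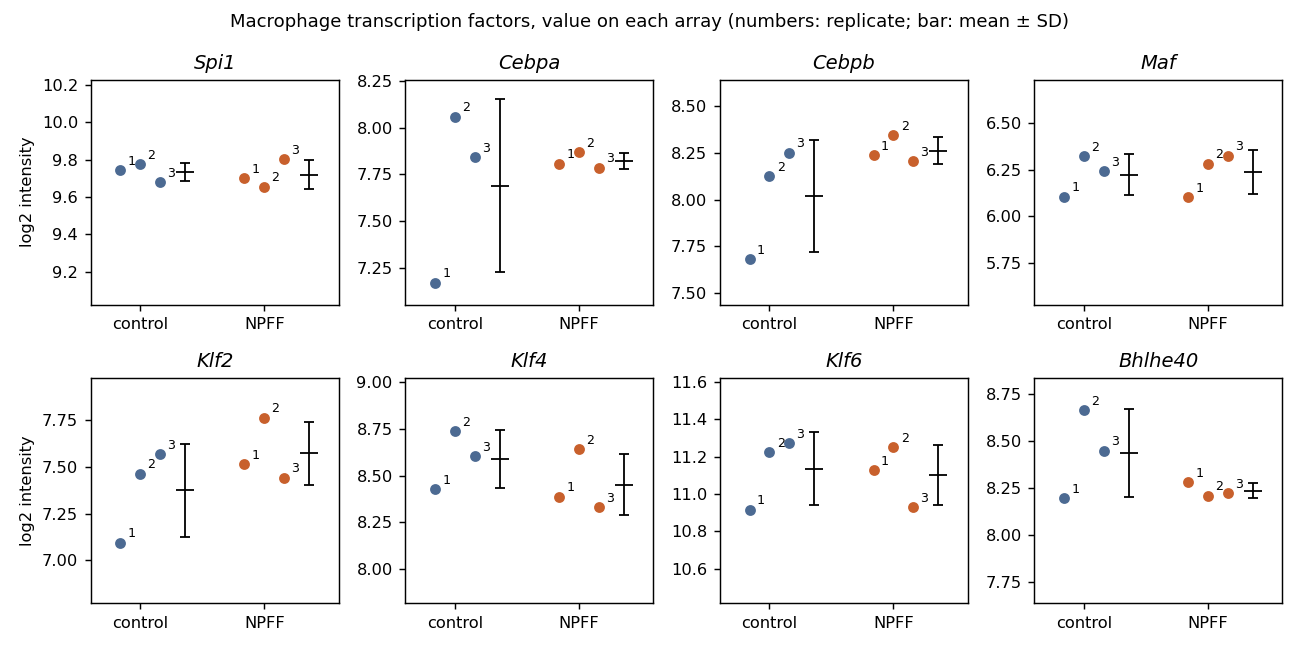
Quantile-normalized log2 intensity of each of the 8 measured transcription factors on each array (blue, control; orange, NPFF; numbers, replicate; black bars, mean ± SD over 3 arrays; every vertical axis spans the same width). Groups overlap in every panel, and control 1 is the lowest point for Cebpa, Cebpb, Klf2, Klf6 and Bhlhe40.

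Spi1, which encodes PU.1, had the narrowest interval of the 8. Its log2 intensities (feature 17373177) were 9.74, 9.78 and 9.68 under PBS and 9.70, 9.66 and 9.80 under NPFF, in the order of replicates 1 to 3. The groups were interleaved, with an NPFF array at either end. The means were 9.73 ± 0.049 (SD, n = 3) under PBS and 9.72 ± 0.076 (SD, n = 3) under NPFF. The difference was -0.013 (SE 0.068; 95% interval -0.18 to 0.15), an interval of 0.884-fold to 1.11-fold. Without control 1 it was -0.0081 (SE 0.069). Spi1 was also the only one of the 8 in which control 1 did not lie below the mean of controls 2 and 3, from which it differed by 0.014.

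Cebpa encodes C/EBP alpha, which is needed early in the myeloid lineage, and its control arrays were the most scattered of the 8 genes. Feature 17476728 read 7.17, 8.06 and 7.84 under PBS and 7.81, 7.87 and 7.79 under NPFF. All 3 NPFF arrays fell between control 1 below and control 2 above. The SD was 0.46 in control and 0.042 in NPFF, a ratio of 10.9, and control 1 differed from the mean of the other controls by -0.78. The difference between groups was 0.13 (SE 0.22; 95% interval -0.39 to 0.65). It turned to -0.13 (SE 0.077) without control 1, and was 0.31 (SE 0.20) without control 2.

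Cebpb encodes C/EBP beta, a factor of macrophage activation, and had the largest positive difference of the 8. Feature 17379938 read 7.68, 8.12 and 8.25 under PBS and 8.24, 8.34 and 8.20 under NPFF. The NPFF arrays lay above controls 1 and 2 and on both sides of control 3. The means were 8.02 ± 0.30 (SD, n = 3) under PBS and 8.26 ± 0.073 (SD, n = 3) under NPFF. The difference was 0.24 (SE 0.15; 95% interval -0.12 to 0.60), with a limma adjusted p = 1.00. Without control 1 it was 0.074 (SE 0.070), and against control 3 alone 0.011. Without control 3 it was 0.36 (SE 0.15) and the groups no longer overlapped, as in 18.8% of all genes in that setting.

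Maf was dim, at the 42.8th percentile of signal over all genes, a rank of array brightness and not of transcript abundance. Its brighter feature (17513289) read 6.11, 6.32 and 6.24 under PBS and 6.10, 6.28 and 6.32 under NPFF. Both groups covered nearly the same stretch. The difference was 0.014 (SE 0.091; 95% interval -0.20 to 0.23), and it was -0.045 (SE 0.079) without control 1. A dimmer feature that also named Maf alone (17505903) differed by 0.0081 (SE 0.085).

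The differences of the 3 KLF genes did not share a sign, and the 95% interval of each included 0. Klf2 (feature 17502440) read 7.09, 7.46 and 7.57 under PBS and 7.51, 7.76 and 7.44 under NPFF. NPFF 2 was the highest of all arrays and control 1 the lowest, while the other 4 lay within a narrow band between them. The difference was 0.20 (SE 0.15; 95% interval -0.16 to 0.55). It was 0.057 (SE 0.099) without control 1, 0.10 (SE 0.16) without NPFF 2, and 0.0055 against control 3 alone.

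Klf4 (feature 17425401) read 8.43, 8.74 and 8.60 under PBS and 8.39, 8.64 and 8.33 under NPFF. NPFF 1 and 3 lay below every control, and NPFF 2 lay between controls 3 and 2. The difference was -0.14 (SE 0.12; 95% interval -0.42 to 0.14). Without control 1 it was -0.22 (SE 0.10), with a limma adjusted p = 0.491. Without NPFF 2 it was -0.23 (SE 0.11) and the groups did not overlap, as in 13.6% of all genes there, and without control 2 it was -0.062 (SE 0.12).

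Klf6, with a signal at the 98.2nd percentile, was the brightest of the 8 (feature 17285000). It read 10.92, 11.22 and 11.27 under PBS and 11.13, 11.25 and 10.93 under NPFF. Each group held 1 low array and its other arrays well above it, so the groups covered much the same range. The difference was -0.034 (SE 0.13; 95% interval -0.34 to 0.27). It was -0.14 (SE 0.094) without control 1 and 0.052 (SE 0.13) without NPFF 3.

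Bhlhe40 had the largest negative difference of the 8. Feature 17461414 read 8.19, 8.67 and 8.45 under PBS and 8.28, 8.21 and 8.22 under NPFF. The NPFF arrays lay close together, within a range of 0.072, below controls 2 and 3 and just above control 1. The means were 8.44 ± 0.24 (SD, n = 3) under PBS and 8.24 ± 0.039 (SD, n = 3) under NPFF. The difference was -0.20 (SE 0.12; 95% interval -0.49 to 0.092), with a limma adjusted p = 1.00.

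Leaving out control 1 moved Bhlhe40 from overlapping to separate groups. The difference was then -0.32 (SE 0.077), with a 95% interval from -0.50 to -0.14. It was 1.61 times as large, and its p ranked 209th of 22180 genes. It still did not pass, with a limma adjusted p = 0.355, and 0% of all genes passed in that setting. An unadjusted p under 0.05 was reached there by 10.8% of all genes, and among the 8 by Bhlhe40 alone. NPFF arrays were then all below the remaining controls for Bhlhe40, a pattern found in 18.3% of all genes. Without control 2 the difference was -0.085 (SE 0.097), and against control 3 alone -0.21. Bhlhe40 kept its sign in all 14 alternatives tried, as did Cebpb, Klf2 and Klf4.

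**Figure D2:**
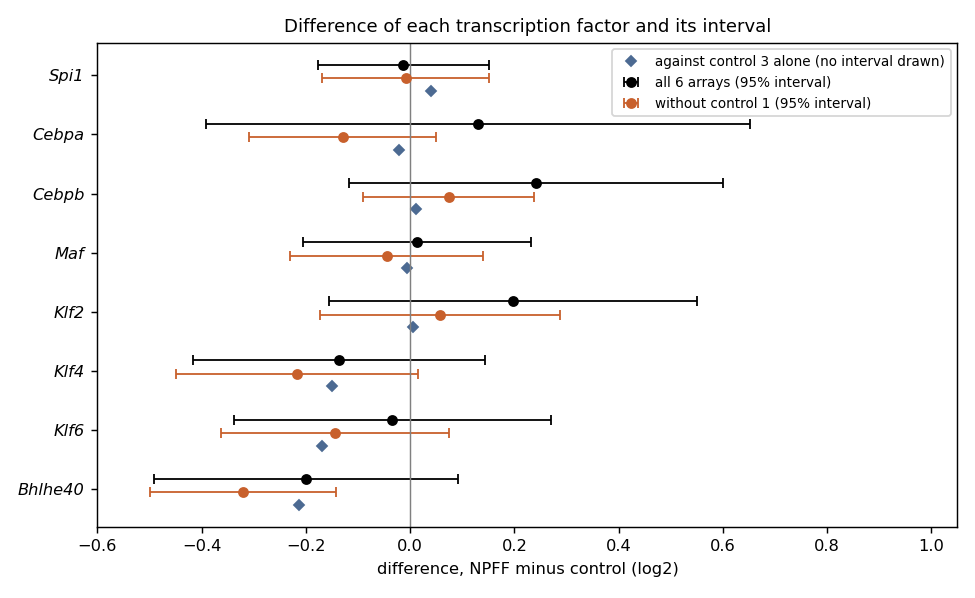
Difference of each transcription factor, NPFF minus control in log2, with its 95% interval from the limma fit for all 6 arrays (black) and without control 1 (orange), and against control 3 alone (blue diamonds, no interval drawn). With all arrays every interval includes 0; without control 1 that of Bhlhe40, -0.50 to -0.14, does not, though its adjusted p is 0.355.

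Set against the mean of the controls one NPFF array at a time, Cebpa, Cebpb and Klf2 were above it on every NPFF array and Bhlhe40 below it on every one. The share of all genes with such a pattern was not computed, so it marks no trait particular to these genes. The comparisons use the same control mean and are not independent of each other. Cebpb differed from the control mean by 0.22, 0.32 and 0.18 on NPFF 1, 2 and 3, Klf2 by 0.14, 0.39 and 0.067, and Cebpa by 0.12, 0.18 and 0.095. Bhlhe40 differed by -0.16, -0.23 and -0.22. Control 1 differed from the mean of controls 2 and 3 by -0.78 in Cebpa, -0.50 in Cebpb and -0.42 in Klf2, which lowers the control mean of each. Without control 1, 2 of the 8 were higher, Cebpb and Klf2, compared with 39.1% of all genes.

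Some of the genes followed each other across the arrays. Of 28 pairs among the 8, 23 had a positive Pearson r over the 6 arrays, with a median of 0.48. Klf2 and Cebpb had the highest, 0.95, followed by Cebpa and Cebpb at 0.85 and Klf4 and Klf6 at 0.81. Spi1 ran against 5 of the other genes, down to -0.63 with Klf6. These values are descriptions of 6 arrays of shared libraries, in which the low reading of control 1 was common to Cebpa, Cebpb and Klf2. Control 1 was also the lowest array in 48.9% of all genes. The share of positive pairs over all genes was not computed, so the values mark no trait particular to the 8. Within the NPFF group, array 2 was the highest of the 3 in Cebpa, Cebpb, Klf2, Klf4 and Klf6, or 5 of 8 genes, as it was in 40.8% of all genes.

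**Figure D3:**
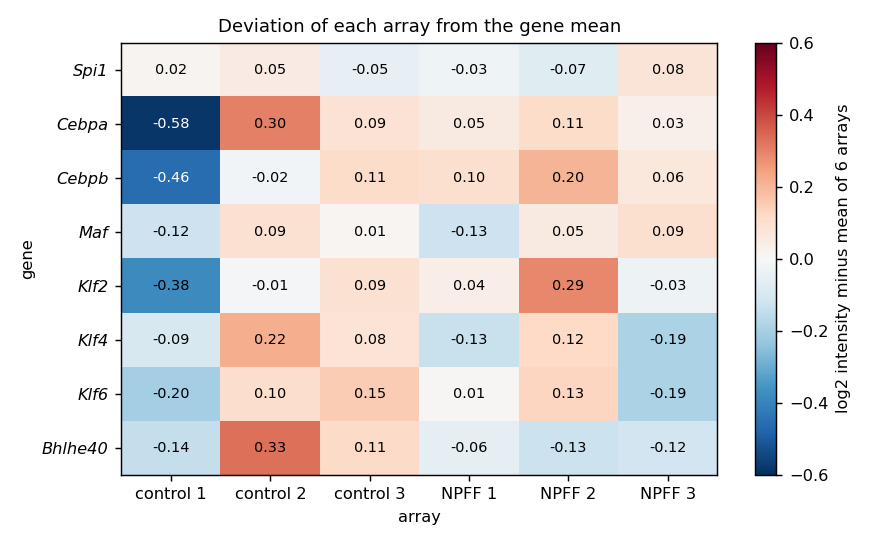
Deviation of each array from the mean of the 6 arrays, in log2, for the 8 transcription factors (rows) on each array (columns; red above and blue below the mean). Control 1 deviates by -0.58 in Cebpa, -0.46 in Cebpb and -0.38 in Klf2, and the NPFF arrays of Bhlhe40 all lie between -0.13 and -0.056.

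Genes with the most similar profiles were sought, by Pearson's r over the 6 arrays, for the 3 factors of smallest p, among genes brighter than the median gene. Nearest to Bhlhe40 were Tagap, a GTPase-activating protein of leukocytes (r = 0.996), Sigirr, a receptor that dampens interleukin-1 and Toll-like signals (0.996), and Kdelr3, a receptor that returns proteins to the endoplasmic reticulum (0.994). Their differences were -0.14, -0.17 and -0.22, and their groups overlapped too. Nearest to Cebpb were the splicing regulator Ptbp1 (0.999), the ubiquitin ligase Uhrf2 (0.998) and the co-chaperone Dnajb6 (0.998). Nearest to Klf2 were Dock1, an exchange factor for RAC (0.998), Atp5e, a subunit of the mitochondrial ATP synthase (0.998), and Epb41l4aos (0.997). These are likenesses over the same 6 arrays, control 1 included. Each is among the highest of very many genes over only 6 points, so an r near 1 says little by itself.

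Among relatives of the 8 factors, 2 C/EBP genes lay apart in opposite directions. Of 4 further C/EBP-family genes, 2 were higher and 2 lower in NPFF, 0 passed limma after adjustment over all genes, and 2 had an unadjusted p under 0.05, Cebpd and Cebpg, where the share over all genes was 2.51%. The same 2 were the ones whose groups did not overlap, beside 8.58% of all genes. Cebpd, whose product C/EBP delta is induced in inflammation, read 7.09, 7.23 and 7.05 under PBS and 6.94, 6.77 and 6.90 under NPFF. Every NPFF array lay below every control, with a difference of -0.25 (SE 0.081), or -0.27 without control 1. Cebpg, which encodes the widely expressed partner C/EBP gamma, read 8.84, 9.25 and 9.16 under PBS and 9.28, 9.45 and 9.39 under NPFF. Every NPFF array lay above every control, though NPFF 1 only just above control 2. Its difference was 0.29 (SE 0.12), and 0.16 without control 1. Ddit3, the stress-induced family member also called CHOP, differed by -0.14 (SE 0.088) and Cebpe, a granulocyte factor, by 0.11 (SE 0.15), with overlapping groups. Without control 1 these were -0.22 and -0.056, so that Cebpe turned sign.

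The 14 other KLF genes were divided evenly, 7 higher and 7 lower, with a median difference of 0.0045 and 0 past the adjusted threshold. Klf8, a transcriptional repressor, read 8.22, 8.22 and 8.12 under PBS and 7.93, 8.04 and 7.78 under NPFF. It was lower on every NPFF array, with a difference of -0.27 (SE 0.084), or -0.25 without control 1. Klf8 was the list's only gene with an unadjusted p under 0.05, beside 2.51% of all genes. Klf7 was higher on every NPFF array, with a difference of 0.11 (SE 0.061). Klf10, a target of TGF-beta, differed by -0.19 (SE 0.12), and by -0.072 without control 1, which was its highest array at 9.17. Klf16 and Klf17 differed by 0.16 (SE 0.14) and -0.088 (SE 0.077), or 0.0058 and -0.12 without control 1. With Klf2, Klf4 and Klf6 counted, 8 of all 17 KLF genes were higher and 9 lower. The near-even split of these 17 did not hold without control 1, where 5 were higher and 12 lower, with a median of -0.072. In that setting 39.1% of all genes were higher.

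Of 23 ETS genes other than Spi1, 13 were higher and 10 lower and 0 passed. With Spi1 counted, 13 of all 24 ETS genes were higher and 11 lower. Without control 1 the balance turned, with 7 of these 24 higher and 17 lower, where 39.1% of all genes were higher. Fli1, an ETS factor of blood and endothelial cells, was higher on every NPFF array, with a difference of 0.19 (SE 0.12), or 0.066 without control 1. Etv6, a repressor of the family, was lower on every NPFF array, with a difference of -0.096 (SE 0.067), and Erg, an endothelial factor, differed by -0.11 (SE 0.078) with overlapping groups. Ets2 and Erf had larger differences, 0.36 (SE 0.19) and 0.32 (SE 0.21), but their groups overlapped, and without control 1 they were 0.13 and 0.062. The 5 MAF relatives measured had 3 higher and 2 lower, between -0.11 (SE 0.24) for Maff and 0.075 (SE 0.14) for Mafa, all with overlapping groups. Mafk, Nrl and Mafg lay between them, at 0.065 (SE 0.12), 0.038 (SE 0.075) and -0.041 (SE 0.13). Without control 1, Maff differed by -0.36, Mafg by -0.13, and Mafa and Mafk turned to -0.080 and -0.058, while Nrl stood at 0.031. In that setting 1 of the 6 MAF-family genes, Maf included, was higher, against 4 with all arrays.

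Bhlhe41, the closest relative of Bhlhe40, read 6.44, 7.72 and 7.35 under PBS and 7.18, 7.28 and 7.05 under NPFF. The NPFF arrays lay between control 1 and the other controls, the arrangement also seen in Bhlhe40. The difference was -0.0021 (SE 0.31), and -0.37 without control 1. The HES-type repressors Hes1, Hes6 and Hey1 had differences of 0.070 (SE 0.099), 0.12 (SE 0.20) and 0.058 (SE 0.080). Without control 1, Hes1 and Hes6 turned to -0.030 and -0.11, and Hey1 was at 0.12. Zeb1, the relative of Zeb2, differed by -0.10 (SE 0.094), and Snai1, Snai2 and Snai3 by 0.067, 0.056 and -0.022. Without control 1, Zeb1 was at -0.013, Snai1 at -0.0050, Snai2 at 0.053 and Snai3 at -0.0025. Groups overlapped in each of these 8 repressors.

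A further list held 37 measured factors of macrophage and blood-cell development, of which 21 were higher and 16 lower, with 0 past the adjusted threshold. An unadjusted p under 0.05 by limma was reached by 0 of them, beside 2.51% of all genes. Myc, whose product drives cell growth, read 8.77, 8.90 and 8.74 under PBS and 8.53, 8.65 and 8.71 under NPFF. It was lower on every NPFF array, with NPFF 3 only just below control 3, and the difference was -0.17 (SE 0.079), or -0.19 without control 1. Myb, a factor of blood progenitors, was also lower on every NPFF array, with a difference of -0.15 (SE 0.076), and Tcf4, a basic helix-loop-helix factor, higher, with one of 0.26 (SE 0.11). Without control 1 these were -0.092 and 0.15. Irf8, a partner of PU.1, read 9.50, 9.32 and 9.11 under PBS and 9.13, 9.04 and 9.08 under NPFF. Here control 1 was the highest array, control 3 lay within the NPFF range, and the difference of -0.22 (SE 0.11) was -0.13 without control 1. Pparg, the fatty acid sensor, differed by -0.16 (SE 0.081). Pparg and Myb were dim, at the 44.8th and 43.2nd percentiles of signal. Without control 1, 4 of the 37 were higher, compared with 39.1% of all genes. Over all 90 measured relatives and other macrophage factors together, groups did not overlap in 11.1%, beside 8.58% of all genes, and the median difference was 0.021.

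Of 28 genes known as targets of PU.1 or C/EBP factors, 16 were higher and 12 lower, 0 passed limma after adjustment, and 4 had groups that did not overlap, or 14.3%, beside 8.58% of all genes. Aif1, a calcium-binding macrophage protein, read 7.40, 7.33 and 7.53 under PBS and 7.04, 7.16 and 6.97 under NPFF. Its groups were set apart, with a difference of -0.36 (SE 0.083), or -0.37 without control 1. Ncf1, a subunit of the phagocyte oxidase, read 9.02, 9.31 and 9.55 under PBS and 9.74, 9.70 and 9.63 under NPFF. Every NPFF array was above every control, with a difference of 0.39 (SE 0.13), or 0.26 without control 1. Csf1r, the receptor for the growth factor CSF1 and a classical PU.1 target, read 10.34, 10.98 and 11.11 under PBS and 11.21, 11.29 and 11.30 under NPFF. It too was higher on every NPFF array, and its difference of 0.46 (SE 0.20) was 0.22 without control 1. Laptm5, a lysosomal protein of leukocytes, was higher on every NPFF array, by 0.14 (SE 0.070). Il6, an inflammatory cytokine, was dim, at the 40.1st percentile of signal. It differed by -0.33 (SE 0.17) with overlapping groups, or -0.51 without control 1. In that setting 8 of the 28 were higher, compared with 39.1% of all genes, and the median was -0.059.

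Of 13 genes driven by MAF, 4 were higher and 9 lower, with a median of -0.055 beside 0.0037 over all genes, and 0 passed after adjustment. Groups did not overlap in 7.69%, beside 8.58% of all genes. The list's median signal percentile was 47.9, beside 42.8 for Maf itself, and small differences of dim genes say little. C1qa, a chain of the complement starter C1q, read 6.99, 7.21 and 7.11 under PBS and 6.997, 6.72 and 6.74 under NPFF. NPFF 2 and 3 lay below every control and NPFF 1 just above control 1. Its difference was -0.28 (SE 0.10), the list's only one with an unadjusted p under 0.05, beside 2.51% of all genes. The other chains C1qb and C1qc differed by -0.19 (SE 0.13) and -0.14 (SE 0.11), and Folr2, a folate receptor of tissue macrophages, by -0.17 (SE 0.10), all with overlapping groups. Without control 1, C1qa was at -0.34, C1qb at -0.27, C1qc at -0.25 and Folr2 at -0.26. The scavenger lectin Mrc1 differed by -0.12 (SE 0.092), and by -0.028 without control 1. In the same setting 2 of the 13 were higher, compared with 39.1% of all genes, and the median was -0.11. No test of direction over a list was run.

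Of 20 self-renewal and proliferation genes, 17 were higher and 3 lower, and the median was 0.12. Higher genes of the list included inhibitors of cyclin-dependent kinases as well as drivers of division, so the counts mix both kinds. Groups did not overlap in 9 of them, 7 higher and 2 lower, or 45.0%, beside 8.58% of all genes. Myc, whose values are given above, was among the 2 lower, at -0.17 (SE 0.079). By limma 0 of the 20 passed after adjustment. An unadjusted p under 0.05 was reached by 1, Mybl2, where the share over all genes was 2.51%. Mybl2, a driver of the mitotic program, read 8.47, 8.79 and 8.91 under PBS and 9.09, 9.16 and 9.07 under NPFF. Its difference was 0.38 (SE 0.12), or 0.25 without control 1. Hexim1, an inhibitor of transcription elongation, was also higher on every NPFF array, by 0.25 (SE 0.11), and the replication clamp Pcna by 0.15 (SE 0.067). Without control 1 these were 0.16 and 0.11. Foxm1, a mitotic transcription factor, differed by 0.22 (SE 0.094), with NPFF 2 at 8.94 below control 2 at 8.96. Without control 1, 13 of the 20 were higher, compared with 39.1% of all genes, and the median was 0.069. The list was chosen with results of these arrays known and is no independent evidence of a direction.

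**Figure D4:**
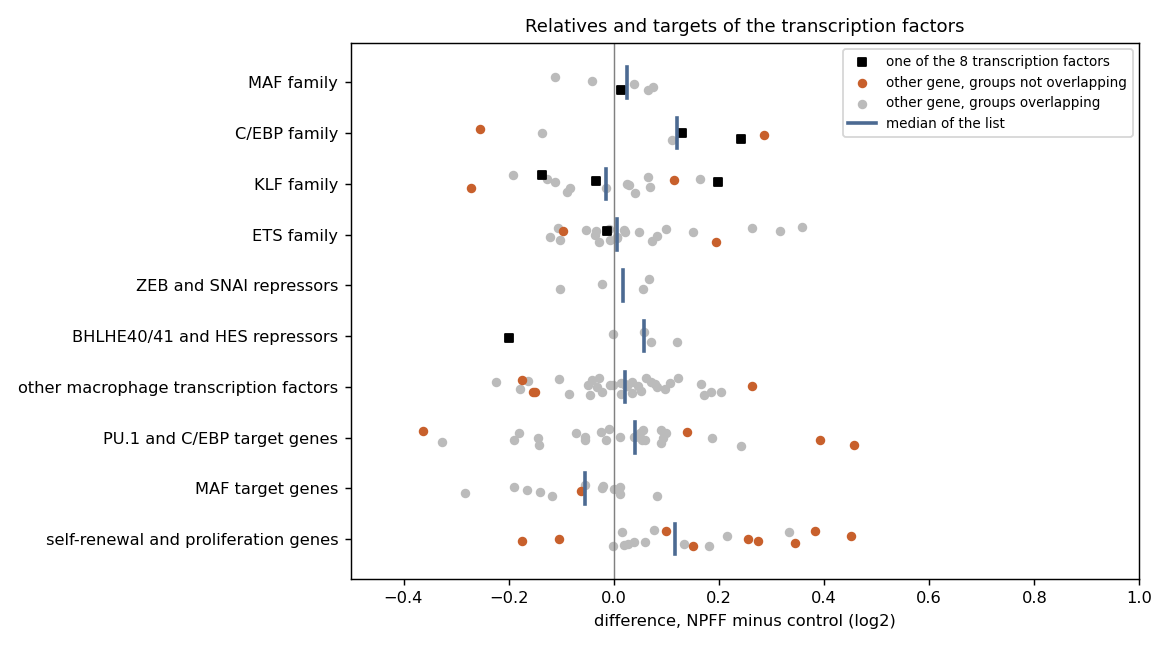
Differences, NPFF minus control in log2, of the genes in each list of relatives and targets (rows); black squares are the 8 transcription factors, orange points other genes whose groups did not overlap, grey points other genes, and blue bars list medians. Medians run from -0.055 for MAF targets to 0.12 for C/EBP-family and proliferation genes, and no gene drawn passed limma after adjustment. The C/EBP median counts Cebpa and Cebpb, and is -0.012 when they are left out. For the whole C/EBP family without control 1 it is -0.092.

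Defining markers were read for the labelled cell type by their rank of brightness, which does not measure abundance. The 15 macrophage markers had a median signal percentile of 97.7, led by lysozyme Lyz2 at the 99.9th, and the lowest were Mertk at the 58.8th and Aif1 at the 62.1st. The 48 measured markers of 7 other kinds of cell (adipocytes, dendritic cells, endothelium, epithelium, fibroblasts, granulocytes with mast cells, and lymphocytes) had a median percentile of 31.1. The brightest of them was the keratin Krt8, at the 62.7th, above Aif1 and Mertk. Macrophage markers were higher in 6 and lower in 9 cases, and their groups did not overlap in 26.7%, beside 8.58% of all genes. By limma 0 of the 15 passed after adjustment, while 2, both lower in NPFF, were under an unadjusted 0.05, beside 2.51% of all genes. These counts moved with control 1 left out, where 5 of the 15 were higher, compared with 39.1% of all genes. Groups then did not overlap in 2 higher and 7 lower markers, beside 27.3% of all genes. An unadjusted p under 0.05 by limma was reached there by 6, of which 5 were lower, beside 10.8% of all genes. After adjustment 0 of all genes passed in that setting. The mean over the 15 was 10.40 to 10.68 in controls and 10.52 to 10.64 in NPFF arrays. Of the 15, 10 are also in the PU.1 and C/EBP target list. Of the 48 other markers, 19 were higher and 29 lower, groups did not overlap in 4.17%, 0 passed after adjustment, and the mean over them was 5.87 to 5.97 in controls and 5.91 in each NPFF array. In cultures of 1 line, fewer cells with a transcript and less transcript per cell cannot be told apart.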

How the data were processed

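The 8 genes with a feature of their own were measured on 6 arrays, 3 per group by the sample titles. The authors deposited 1 value per array feature, on a log2 scale as judged by their range of 4.59 to 14.0. Their background correction, normalization and genome build were not given in the sources used here. Of 33794 features, 23521 were paired with 1 symbol, 1814 with several and 8459 with none. Sorted values of the arrays departed from their mean by up to 0.17 log2, so quantile normalization over all features was applied. The brightest feature of each gene gave 22180 genes.

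Groups were compared by limma (version 3.58.1, R 4.3.3; lmFit and eBayes on group alone, 4 residual and 2.49 prior degrees of freedom). The test was 2-sided, and p-values were adjusted by Benjamini and Hochberg over the 22180 genes, at a threshold of 0.05. SE and 95% intervals are those of the moderated fit; no dim features were removed and no counting depth exists, so the number of arrays limits precision. The fit was tested on simulated data with 200 genes altered by known amounts. Noise there was independent and of equal size for every gene and array, with no array like control 1. That test checks the working of the fit and not its performance on these arrays. Members, gene lists (10 of relatives and targets, 8 of cell type markers) and tests were chosen with earlier results of these data known. Named were all members, up to 5 genes of smallest p per list of relatives or targets, those nearest in profile, and Myc, Irf8, Csf1r and Bhlhe41; 1 further gene of that rule is not reported here; markers cited by signal were picked after their values were seen. Alternatives covered normalization, feature choice, dim features, replicate block, array weights and arrays left out.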

Additional observations from a re-analysis of the deposited data

How the results depend on the processing

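The number of genes with an adjusted p under 0.05 was 0 in all 14 alternatives, and no transcription factor of the 8 passed in any; the lowest adjusted p of one was 0.355. The count at an unadjusted p under 0.05 was 556 and moved by over 1.5 times to 2397, 937, 235, 268 and 304 without control 1, control 3, NPFF 1, 2 or 3, to 1130 without controls 1 and 2, 1866 with gene-by-gene array weights (control 1 at 0.121) and 369 with the dimmer features removed, which tests fewer genes and leaves out Maf. Of 112 recomputed differences, 97 kept their sign. With single arrays left out, Maf ranged from -0.045 to 0.080, Spi1 from -0.055 to 0.019, Cebpa from -0.13 to 0.31 and Klf6 from -0.14 to 0.052. Without controls 1 and 2, Maf was at -0.0053, Spi1 at 0.041 and Cebpa at -0.020; with array weights they were at -0.034, 0.012 and -0.050. The cause was not tested. The count of the 8 whose groups did not overlap, 0, was 1 (Bhlhe40) after cyclic loess, beside 10.3% of all genes, and 0 to 1 with single arrays left out; without controls 1 and 2, Klf6 and Bhlhe40 did not overlap, as in 49.6% of all genes. The genes higher in the list of 37 factors ranged from 4 to 25. With the replicate number as a block, 396 genes had an unadjusted p under 0.05 and no call differed; deviations of same-numbered arrays correlated at 0.23, 0.45 and -0.33, and 3 of 6 arrays correlated best with their own number, so the numbers were not taken to pair the samples. Signal over background is not given, and small differences of dim genes such as Maf say little.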
